A study of Homo sapiens with 6 samples.

Results

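The BCL2 family sets whether the outer membrane of the mitochondrion stays intact, and 10 of its genes are described here: the survival genes BCL2, BCL2L1 and MCL1, the effector genes BAX and BAK1, and the BH3-only genes BBC3, PMAIP1, HRK, BCL2L11 and BMF. They were taken by symbol from the 60616 genes of the deposited tables, and all 10 symbols matched 1 gene each. RNA was sequenced from 12Z cells, a wild-type, immortalized line of human endometriotic cells, the cells of lesions that resemble the uterine lining but grow elsewhere. Of the 6 libraries, 3 came from cells given 70 ug/mL frankincense extract, a preparation of Boswellia resin, in DMSO for 12 h, and 3 from cells given DMSO alone, called vehicle here. Both groups grew in medium with 10% charcoal-stripped serum, which is low in steroid hormones, and 1 dose and 1 time were tested in 1 line. The labels do not say that the libraries came from separate cultures, so each p-value measures the spread between these libraries, which may be technical.

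In a healthy cell the survival proteins BCL-2, BCL-XL (from BCL2L1) and MCL-1 hold BAX and BAK in check. BH3-only proteins are made or activated under stress, occupy the groove of the survival proteins and in some cases engage BAX and BAK directly. BAX and BAK then form pores in the outer membrane, cytochrome c leaves the mitochondrion, and caspases are activated. Much of this control acts on proteins, by phosphorylation, cleavage and degradation, so RNA levels describe only the supply of each part.

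What the family shares is the BH3 motif, and its core is shown as coding sequence because it is the feature that places these genes in one family. An in-frame search of the GENCODE 29 coding sequences (GRCh38) for leucine, any 3 residues, glycine or alanine, and aspartate found exactly 1 such core in each of the 10 genes. The lines give the coding strand, 5′ to 3′, with the 6 core codons in capitals. The survival and effector genes read as follows.
BCL2: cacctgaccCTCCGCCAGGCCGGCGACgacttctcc
BCL2L1: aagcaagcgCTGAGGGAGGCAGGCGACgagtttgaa
MCL1: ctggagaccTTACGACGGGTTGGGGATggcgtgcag
BAX: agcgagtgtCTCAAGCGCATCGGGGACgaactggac
BAK1: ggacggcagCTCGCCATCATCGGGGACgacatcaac
The BH3-only genes, in which this motif is the only one of the family's conserved motifs, read as follows.
BBC3: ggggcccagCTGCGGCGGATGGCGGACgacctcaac
PMAIP1: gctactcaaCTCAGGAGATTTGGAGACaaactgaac
HRK: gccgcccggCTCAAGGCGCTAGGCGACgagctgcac
BCL2L11: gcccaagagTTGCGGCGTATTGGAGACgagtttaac
BMF: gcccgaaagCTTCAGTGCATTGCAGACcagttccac
The codon for the small residue before the aspartate is glycine in 8 genes and alanine in BBC3 and BMF. PMAIP1 is the shortest of the 10, with 54 codons, and carries the core at codons 29 to 34; in BMF, of 184 codons, it lies at codons 137 to 142. Each stretch lies within a single coding exon: chr18:63318352-63318387 (minus strand), chr20:31721925-31721960 (minus), chr1:150578868-150578903 (minus), chr19:48955778-48955813 (plus) and chr6:33575390-33575425 (minus) for the first set, and chr19:47226582-47226617 (minus), chr18:59902664-59902699 (plus), chr12:116881173-116881208 (minus), chr2:111150094-111150129 (plus) and chr15:40104198-40104233 (minus) for the BH3-only genes.

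The libraries held 22615112 to 27615200 counts over genes. At that depth 3 counts in 1 library, taken as the limit that a count of 0 allows, equal 0.112 to 0.136 CPM, counts relative to library size after scaling by TMM factors; this limit covers counting error only. Frankincense replicate 3 stood apart from the other treated libraries, with a chi-square of 12.9 and 11.2 per degree of freedom against them, where other pairs within a group gave 3.65 to 4.18; results that change without it are given with that value. The labelled cell type was checked against markers: 5 of 6 epithelial and 5 of 5 mesenchymal markers reached 1 TPM, with the epithelial adhesion gene CDH1 at 0 to 0.23 TPM, and endothelial markers summed to no more than 0.52 TPM in any library. Immune markers summed to 2.12 to 3.30 TPM in vehicle and 0.40 to 0.69 TPM after extract, of which CD14 made up 1.94 to 2.88 and 0.23 to 0.57 TPM, with CD3E listed at 0; smooth muscle markers summed to 2.05 to 2.68 and 1.26 to 1.64 TPM. Epithelial markers summed to 1574 to 1605 TPM in vehicle and 1361 to 1419 TPM after extract, with 2 of 5 tested called higher and 3 lower, and mesenchymal markers to 3886 to 3974 and 3075 to 3342 TPM, with 1 of 5 higher and 3 lower; all 3 tested smooth muscle markers were lower. Among all tested genes 31.9% were called higher and 31.0% lower. The part of the marker shifts in the members' values was not tested.

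Under TMM scaling, frankincense extract changed survival and BH3-only genes in both directions, and of the effectors BAK1 rose. The survival gene BCL2 rose 2.13-fold, the BH3-only gene BMF was 3.86-fold lower, and the BH3-only gene HRK appeared from no counts at all. BCL2L1, BAK1 and PMAIP1 rose by 1.24-fold to 1.42-fold, and BAX and BBC3 did not pass the test. MCL1 and BCL2L11 were 1.16-fold and 1.19-fold lower, calls that were lost with library size alone and on the TPM scale. In the quasi-likelihood test of edgeR, at a Benjamini-Hochberg adjusted p under 0.05, 5 members (HRK among them) were called higher, 3 lower and 2 neither. Of all tested genes 31.9% were called higher and 31.0% lower, 62.9% in all, so the count of 8 among 10 is no result about the family as such; what follows concerns its single genes. The median log2 change was 0.23 over the members, against -0.0016 over all tested genes. HRK ranked highest among the members both as fitted and at its lower bound, so the bound could not move that median. Without HRK the median was 0.16, the value of BBC3. Changes of at least 2-fold, seen in 5.14% (higher) and 7.11% (lower) of all genes, were BCL2 and HRK (higher) and BMF (lower). The groups did not overlap for 8 of 10 members in CPM and for 8 of 10 in TPM, against 67.5% and 65.2% of all tested genes. All 10 members passed the filter on low counts, but HRK did so through the treated libraries alone and so had to differ. Fewer cells that express a gene and less RNA per cell cannot be told apart in bulk RNA.

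**Figure D1:**
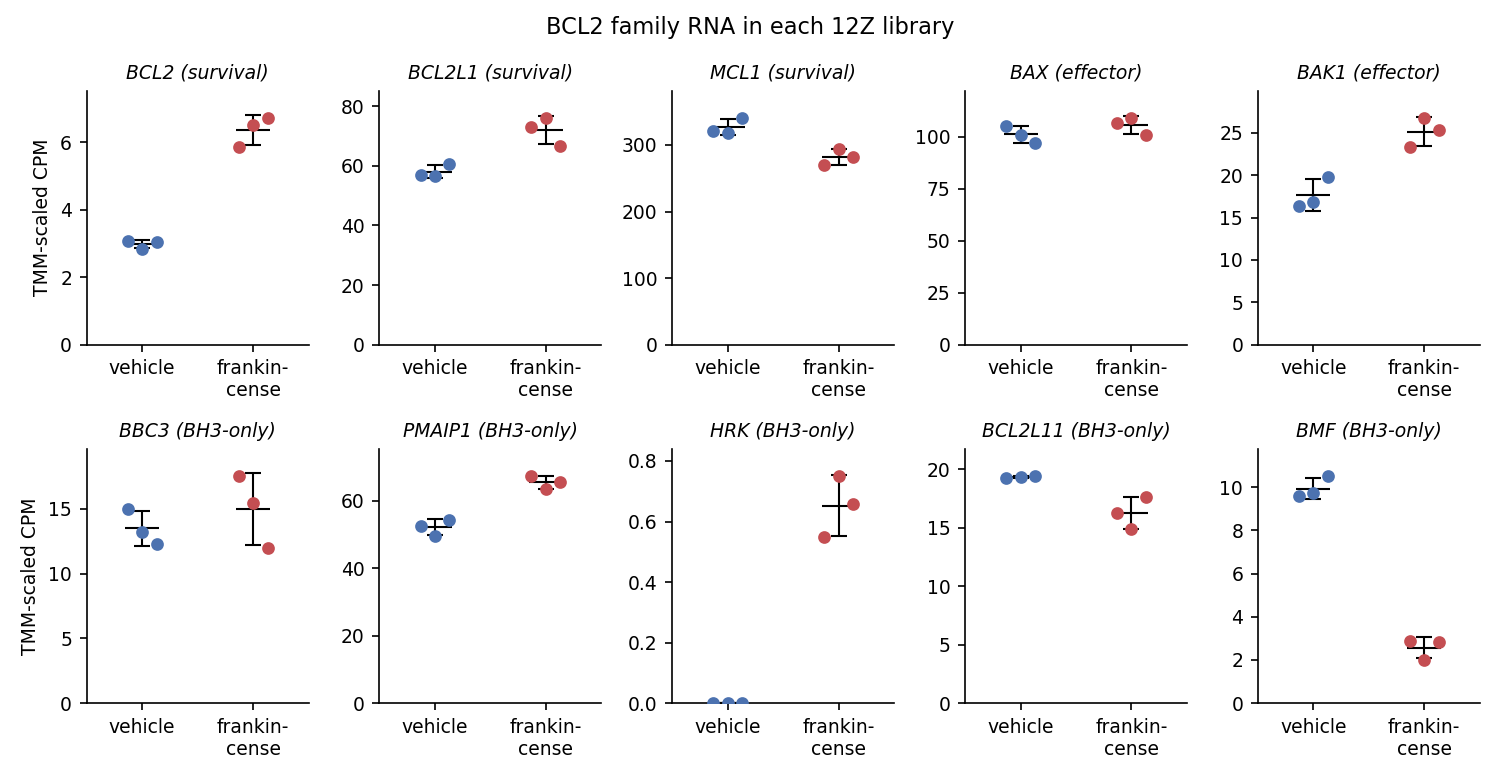
TMM-scaled CPM of the 10 members in each library, with vehicle in blue and frankincense in red; black bars are the group mean ± SD (n = 3). The groups do not overlap in 8 panels, with BMF falling from 9.93 to 2.56 CPM and HRK at 0 in every vehicle library, and they overlap for BAX and BBC3.

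Among survival genes, BCL2 (ENSG00000171791, GRCh38 chromosome 18, 63123346 to 63320128, minus strand) encodes the founding member of the family, an inhibitor of apoptosis first found at a lymphoma translocation. Its level was 3.07, 2.84 and 3.05 CPM in the vehicle libraries and 5.87, 6.50 and 6.73 CPM after extract. Every treated library was above every vehicle library, a log2 fold change of 1.09 ± 0.13 (SE; edgeR adjusted p = 3.7e-06), larger than that of 95.7% of tested genes. BCL2L1 (ENSG00000171552, chromosome 20, 31664452 to 31723989, minus strand) encodes BCL-XL and, by alternative splicing, the shorter pro-apoptotic BCL-XS; gene totals do not separate them. It went from 56.9, 56.5 and 60.5 CPM to 73.0, 76.1 and 66.8 CPM, a log2 fold change of 0.31 ± 0.060 (edgeR adjusted p = 0.00037). The groups did not overlap, and the lowest treated value was that of frankincense replicate 3.

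MCL1 (ENSG00000143384, chromosome 1, 150574551 to 150579738, minus strand) encodes a survival protein with a very short life, whose supply depends on steady synthesis. Its level was 321, 318 and 341 CPM in vehicle and 270, 293 and 282 CPM after extract. The groups did not overlap on this scale, and the log2 fold change was -0.21 ± 0.057 (edgeR adjusted p = 0.0046). That call depended on scaling: with library size alone it was -0.14 (adjusted p = 0.0512), and on the TPM scale its sign turned, to 0.041 (limma adjusted p = 0.633). A fall in MCL1 is therefore a fall relative to the other genes under TMM scaling, not one seen on every scale.

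BAX (ENSG00000087088, chromosome 19, 48954815 to 48961798, plus strand) encodes the effector that moves from the cytosol to mitochondria. It had 105, 101 and 97.0 CPM in vehicle and 107, 109 and 101 CPM after extract. The groups overlapped, and the log2 fold change of 0.062 ± 0.052 did not pass the test (edgeR adjusted p = 0.319). It was called without frankincense replicate 3 (0.10, adjusted p = 0.0374), with library size scaling (0.14, adjusted p = 0.0334) and on the TPM scale (0.26, adjusted p = 0.00175). BAK1 (ENSG00000030110, chromosome 6, 33572547 to 33580293, minus strand) encodes BAK, the effector that resides in the outer membrane. It went from 16.4, 16.8 and 19.8 CPM to 23.3, 26.8 and 25.3 CPM. The groups did not overlap, with a log2 fold change of 0.51 ± 0.085 (edgeR adjusted p = 0.00011). Its pseudogene copies BAK1P1 and BAK1P2 held 4.02 counts in all vehicle libraries and 2 in all treated ones, few beside the counts given to BAK1.

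BH3-only genes split. BMF (ENSG00000104081, chromosome 15, 40087890 to 40108892, minus strand) encodes a BH3-only protein that binds dynein light chain 2 and is tied to the actin cytoskeleton and to loss of attachment. Its level was 9.58, 9.71 and 10.5 CPM in vehicle and 2.86, 2.0 and 2.83 CPM after extract. The highest treated library lay far below the lowest vehicle library, and the log2 fold change was -1.95 ± 0.14 (edgeR adjusted p = 1.6e-08), lower than that of all but 1.45% of tested genes. BCL2L11 (ENSG00000153094, chromosome 2, 111119378 to 111168447, plus strand) encodes BIM, which binds all survival proteins and can activate BAX. It had 19.2, 19.3 and 19.4 CPM in vehicle and 16.3, 14.9 and 17.6 CPM after extract.

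The treated BCL2L11 values were all lower but spread more widely, and the log2 fold change of -0.25 ± 0.078 passed the test (edgeR adjusted p = 0.0115). It did not pass without frankincense replicate 2 (adjusted p = 0.069), in DESeq2 (adjusted p = 0.0539), with library size scaling (adjusted p = 0.0717) or on the TPM scale (adjusted p = 0.564). The noncoding gene MIR4435-2HG overlaps BCL2L11 on the other strand and took 5438 counts in vehicle and 4942 after extract, with a log2 fold change of -0.13 ± 0.060 (edgeR adjusted p = 0.0771). Whether the library kit preserves strand is not stated, and without strand the reads of a shared stretch cannot be told apart; the part of this in the BCL2L11 value was not tested.

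PMAIP1 (ENSG00000141682, chromosome 18, 59899948 to 59904306, plus strand) encodes NOXA, which binds MCL-1 and promotes its breakdown. It went from 52.6, 49.7 and 54.3 CPM to 67.3, 63.5 and 65.6 CPM. The groups did not overlap, with a log2 fold change of 0.33 ± 0.055 (edgeR adjusted p = 0.00013). BBC3 (ENSG00000105327, chromosome 19, 47220822 to 47232766, minus strand) encodes PUMA, which binds all survival proteins. It had 14.95, 13.2 and 12.3 CPM in vehicle and 17.5, 15.5 and 12.0 CPM after extract. The groups overlapped, with frankincense replicate 3 the lowest of all 6, and the log2 fold change of 0.16 ± 0.13 did not pass the test (edgeR adjusted p = 0.311). Without that library it was 0.31 and was called (adjusted p = 0.00598), as it was with all libraries on the TPM scale (0.39, limma adjusted p = 0.0236).

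HRK (ENSG00000135116, chromosome 12, 116856144 to 116881441, minus strand) encodes Harakiri, a BH3-only protein that binds BCL-2 and BCL-XL and is best known from neurons deprived of growth factor. It had 0 counts in each vehicle library and 14, 18 and 16 counts after extract. Against a floor of 3 counts over the vehicle group, the 48 treated counts were at least 16.1-fold higher. At 0.55, 0.75 and 0.66 CPM after extract it remained the member with the fewest counts. On the TPM scale the same counts came out as 0.20, 0.18 and 0.65, because RSEM assigned the reads to transcripts of mean length 3936, 5789 and 1695 bases; the main HRK transcript in GENCODE 29 is 5789 bases long. For HRK the counts are therefore steadier than the TPM values.

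**Figure D2:**
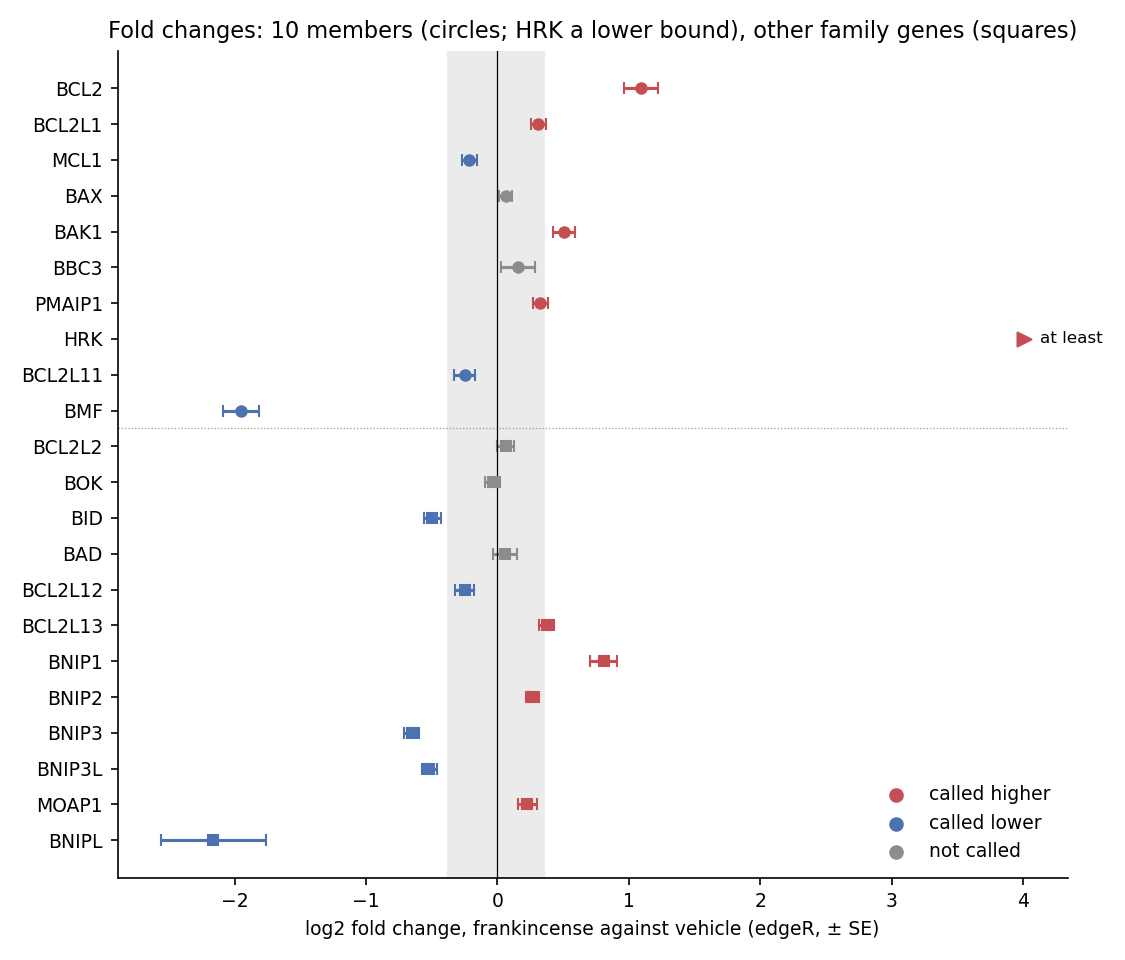
Log2 fold change ± SE from edgeR for the 10 members (circles, above the dotted line) and 12 other BCL2-related genes that were tested (squares). The grey band spans the lower to the upper quartile of all tested genes, -0.38 to 0.35. Among the members, BCL2, BAK1, HRK and BMF lie outside the band, and HRK is drawn at its lower bound of 4.01. Among the squares, BID, BCL2L13, BNIP1, BNIP3, BNIP3L and BNIPL also lie outside it.

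Promoter sequences of the BH3-only genes with the strongest changes, BMF and HRK, are shown because their RNA moved in opposite directions. RefSeq (GRCh38.p14) gave windows from 250 bases before to 50 after the start for 9 of the 10 members, 11 windows in all. Only bases before the first annotated exon are printed, 5′ to 3′ on the gene's strand, with motif matches in capitals. The printed HRK stretch is chr12:116881442-116881691, within the window chr12:116881392-116881691. The printed BMF stretch, at the upstream of its 2 starts, is chr15:40108893-40109129, within the window chr15:40108830-40109129. Both are on the minus strand.
HRK: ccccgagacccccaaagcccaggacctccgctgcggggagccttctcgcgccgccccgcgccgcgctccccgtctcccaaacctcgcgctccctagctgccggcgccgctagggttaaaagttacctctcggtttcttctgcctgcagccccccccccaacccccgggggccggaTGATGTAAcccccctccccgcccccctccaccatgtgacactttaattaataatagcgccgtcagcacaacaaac
BMF: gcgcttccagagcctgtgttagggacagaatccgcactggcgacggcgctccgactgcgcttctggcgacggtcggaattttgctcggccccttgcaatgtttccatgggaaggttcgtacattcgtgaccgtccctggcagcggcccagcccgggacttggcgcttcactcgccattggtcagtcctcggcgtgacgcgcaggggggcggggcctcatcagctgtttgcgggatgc
A set of 3 motifs was searched on both strands: TGATGNAA, the composite site that C/EBP and ATF factors such as CHOP and ATF4 bind, TGACGTCA, the cyclic AMP response element, and GTAAACA, a forkhead site. None of the 3 contains another. The HRK window held TGATGNAA once, at position -75 from the gene start, as did 3.62% of 35116 windows. GTAAACA was found once among the members, in BCL2L11 at position -223, as in 3.42% of windows, and TGACGTCA in none of the 11 windows, against 1.85% of all. The BMF window held none of the 3. A match describes letters only.

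Levels between genes were compared per transcript length, in TPM. In vehicle the order was BAX (183 ± 7.3 TPM, SD, n = 3), MCL1 (101 ± 5.6), PMAIP1 (47.5 ± 2.8), BCL2L1 (32.5 ± 2.3), BBC3 (11.0 ± 1.2), BAK1 (10.5 ± 1.2), BCL2L11 (6.38 ± 0.49), BMF (2.79 ± 0.072), BCL2 (0.627 ± 0.13) and HRK, listed at 0. BBC3 and BAK1 overlapped in vehicle; no other neighbours did. Among the 3 survival members, MCL1 and BCL2L1 thus stood far above BCL2, which reached 1.58 ± 0.21 TPM after extract; BCL2L2, a survival gene outside the 10, was at 16.2 ± 1.6 TPM in vehicle and 20.0 ± 1.9 TPM after extract. In the treated libraries BAK1 (17.7 ± 1.7 TPM) stood above BBC3 (14.8 ± 2.3 TPM), with overlap, and BCL2 above BMF (0.92 ± 0.26 TPM), without overlap. The 6 highest-ranked genes were the same in both groups.

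**Figure D3:**
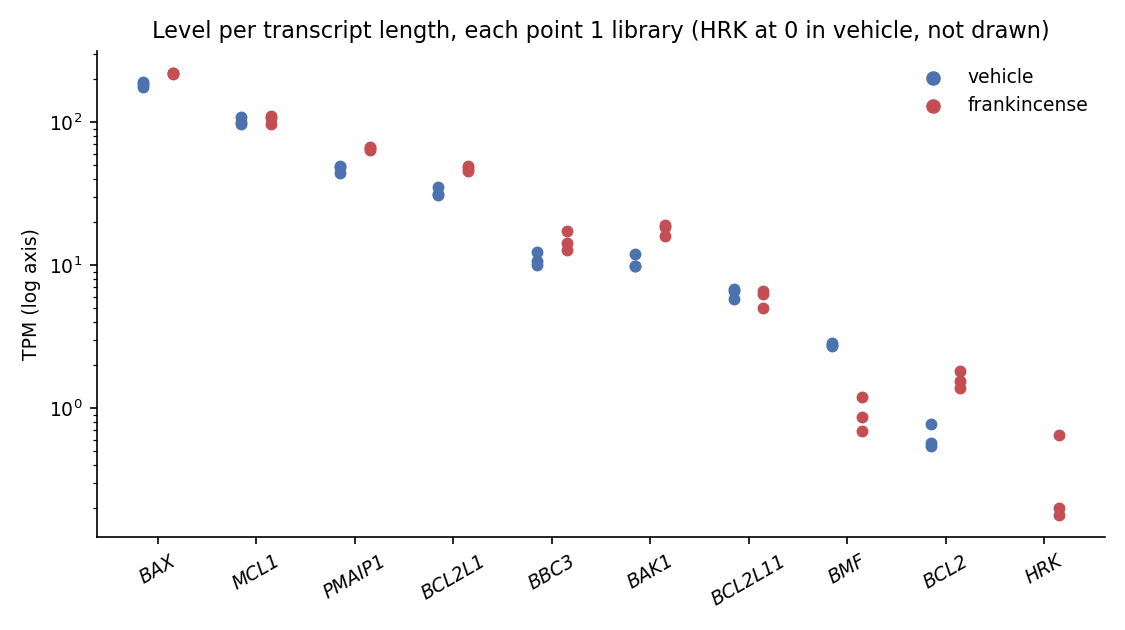
TPM of each member on a log axis, ordered by the vehicle mean, with 1 point per library (vehicle blue, frankincense red). Levels run from BAX at 183 TPM down to BCL2 at 0.627 TPM in vehicle, and BCL2 and BMF change places after extract.

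By role, survival genes made up 34.0% ± 1.1 of the summed TPM of the 10 members in vehicle and 32.1% ± 1.1 after extract, effectors 48.9% ± 0.88 and 49.6% ± 0.11, and BH3-only genes 17.1% ± 0.23 and 18.3% ± 1.0 (SD, n = 3). The ranges of the survival and effector shares overlapped between groups, and the BH3-only share was 16.91% to 17.35% against 17.46% to 19.46%. PMAIP1 alone held 47.5 of the 67.7 TPM of that class in vehicle and 65.6 of 87.6 TPM after extract. Within the class the means of BBC3 and HRK also rose, and those of BMF and BCL2L11 fell. Summed over the 10 members, TPM went from 396 ± 16 to 478 ± 6.6, on a scale where the median of all genes also rose.

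Ratios of TPM between 2 members in the same library do not depend on how libraries are scaled. They do depend on the transcript length that RSEM gave each gene in that library. The 8 pairs were chosen after the values were seen and are described without a test. BCL2 relative to BMF was 0.278, 0.198 and 0.199 in vehicle and 1.60, 2.23 and 1.51 after extract. The survival gene was below the BH3-only gene in every vehicle library and above it in every treated one. PMAIP1 relative to MCL1, a BH3-only protein and its main partner, was 0.488, 0.457 and 0.460 in vehicle and 0.696, 0.595 and 0.601 after extract. BAK1 relative to MCL1, which restrains BAK, went from 0.104 ± 0.0065 to 0.170 ± 0.0044. BCL2L1 relative to MCL1 went from 0.321 ± 0.0055 to 0.458 ± 0.044. BAX relative to MCL1 went from 1.81 ± 0.096 to 2.11 ± 0.14, and BAX relative to BCL2L1 the other way, from 5.63 ± 0.39 to 4.61 ± 0.22. BCL2L1 relative to BCL2L11 went from 5.11 ± 0.47 to 8.12 ± 1.6. None of these overlapped between groups, whereas BCL2L11 relative to MCL1 did, at 0.0631 ± 0.0059 and 0.0576 ± 0.0096 (SD, n = 3). How often ratios of other gene pairs overlap was not computed, and 65.2% of single tested genes did not overlap in TPM. Several of the pairs share MCL1 or BCL2L1, so they are not separate observations.

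**Figure D4:**
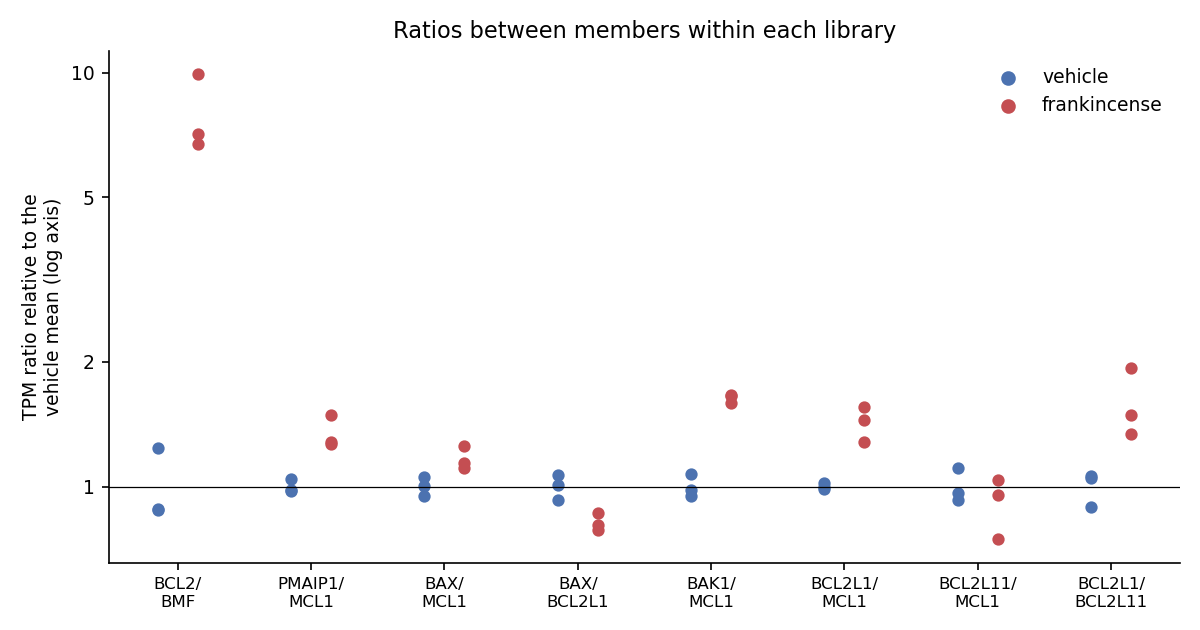
TPM ratio of 8 pairs of members in each library, divided by the mean ratio of the vehicle libraries, on a log axis (vehicle blue, frankincense red). BCL2 relative to BMF stands highest in the treated libraries, BAX relative to BCL2L1 lies below 1, and BCL2L11 relative to MCL1 overlaps between groups.

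Transcript make-up was read from the mean transcript length that RSEM gives each gene in each library. PMAIP1 was the only member of the 10 whose groups did not overlap, with 1467, 1483 and 1492 bases in vehicle and 1537, 1547 and 1653 bases after extract; among all tested genes with more than 1 transcript 20.2% did not overlap. The files list 3 PMAIP1 transcripts, of 1948, 1262 and 804 bases in GENCODE 29. When the counts were adjusted for effective length, the PMAIP1 change was 0.21 ± 0.067 (edgeR adjusted p = 0.0166), against 0.33 without.

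Scaling moved the small changes. On the TPM scale the median of all tested genes was 0.20, and 74.8% of all calls were higher, against 50.7% under TMM; there 7 members were called higher and 1, BMF, lower, beside 43.8% and 14.8% of all genes. With TPM rescaled without mitochondrially encoded genes that median was 0.053. There 5 members were called higher and 1 lower. With that rescaling 8902 genes were called in all, 5141 of them higher, against 10509 and 5332 under TMM. The 5141 made up 57.8% of those calls, which is not a share of all tested genes. With library size alone 6 members were called higher and 1 lower, beside 37.1% and 26.1% of all genes, and without frankincense replicate 3 the counts were 7 and 3, beside 33.1% and 31.1%. BCL2, BCL2L1, BAK1, PMAIP1 and BMF kept their direction and their call under each of the 18 alternatives.

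**Figure D5:**
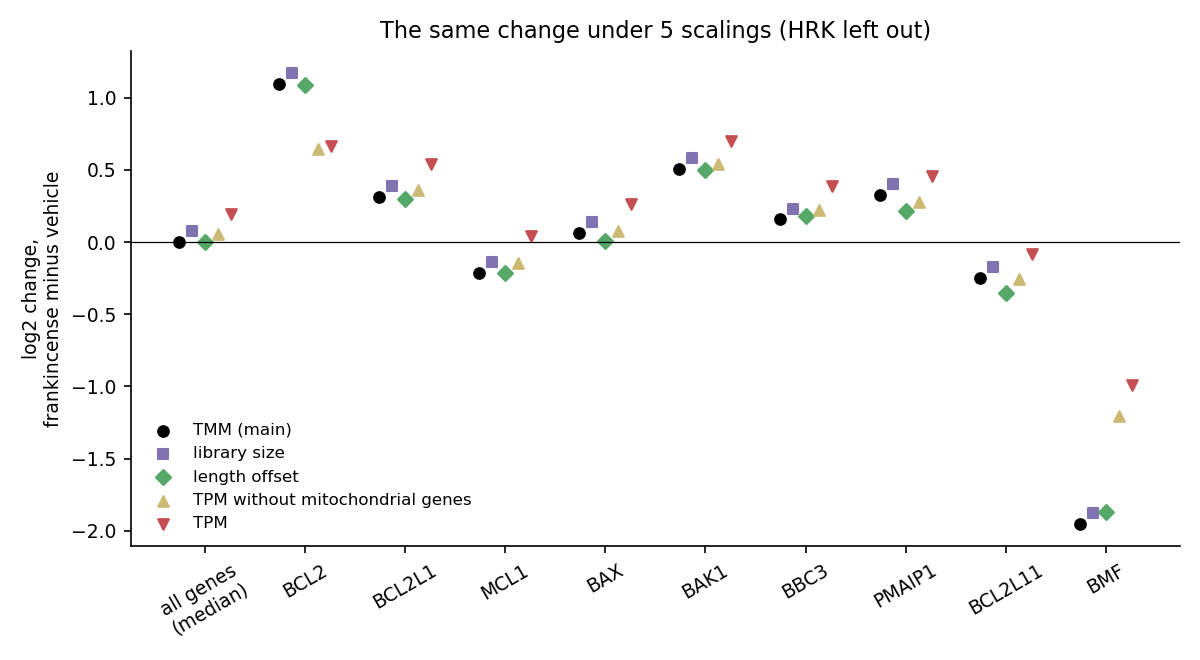
Log2 change of 9 members and the median of all tested genes under 5 scalings: TMM, library size alone, an offset for effective length, and limma on log2(TPM + 1) with and without mitochondrial genes. The TPM points sit above the TMM points by about the shift of the all-gene median for genes of high level, MCL1 changes sign, and the pseudocount shrinks BCL2 and BMF.

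The rest of the family, 17 genes in 3 lists, had 12 tested, of which 4 were called higher and 5 lower, with a median log2 change of 0.010, beside 31.9% higher and 31.0% lower among all tested genes. Of other survival genes, BCL2L2, which encodes BCL-W, was at 0.062 ± 0.063 and not called, and BCL2A1 and BCL2L10 were too low to test, with 4 and 22 counts in all vehicle libraries and 0 and 6 after extract. Of other pro-apoptotic genes, BID, which links death receptors to mitochondria, fell. Its level was 63.0 ± 2.0 CPM in vehicle and 44.8 ± 4.1 CPM after extract, a log2 fold change of -0.49 ± 0.066 (edgeR adjusted p = 1.3e-05). BAD and BOK were at 0.057 ± 0.094 and -0.036 ± 0.059, neither called, and BIK, BCL2L14 and BCL2L15 were too low to test.

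Of the 8 genes in the atypical list, not all of them BCL2 family genes, 4 were called higher and 4 lower, where 62.9% of all tested genes were called. BNIP3 and BNIP3L, mitophagy receptors known as targets of hypoxia, fell by 0.65 ± 0.055 and 0.52 ± 0.058 on the log2 scale. BNIPL fell the furthest, by 2.16 ± 0.40, at a level of 1.59 ± 0.22 CPM in vehicle and 0.347 ± 0.25 CPM after extract. BNIP1, a SNARE of the endoplasmic reticulum, rose by 0.81 ± 0.10 and BCL2L13, an outer-membrane mitophagy receptor, by 0.37 ± 0.056. BNIP2 rose by 0.27 ± 0.050 and MOAP1, a modulator of BAX, by 0.23 ± 0.072. BCL2L12 fell by 0.25 ± 0.071, but overlapped in TPM, at 49.8 ± 2.5 in vehicle and 49.1 ± 1.7 after extract.

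The list of mitochondrial release and apoptosome genes also held outer-membrane channels and a lysosomal transporter, so not all of it lies downstream of BAX and BAK. Of its 12 tested genes 7 were higher and 2 lower, beside 31.9% and 31.0% of all tested genes. The median log2 change of the list was 0.23. CYCS, which encodes cytochrome c, rose. Its level was 83.9 ± 0.85 CPM in vehicle and 181 ± 9.7 CPM after extract, a log2 fold change of 1.11 ± 0.053 (edgeR adjusted p = 3.2e-10). The 42 pseudogene copies of CYCS held 53 counts in vehicle and 50 after extract. APAF1, the scaffold that cytochrome c assembles into the apoptosome, fell. Its level was 28.4 ± 0.56 CPM in vehicle and 16.8 ± 0.89 CPM after extract, a log2 fold change of -0.76 ± 0.069 (edgeR adjusted p = 2.1e-07). SPNS1, a lysosomal transporter, rose by 0.56 ± 0.060 and AIFM1, apoptosis-inducing factor, by 0.32 ± 0.053. VDAC3, an outer-membrane channel, fell by 0.31 ± 0.056, but overlapped in TPM, at 122 ± 3.1 in vehicle and 119 ± 4.0 after extract. CASP9, the initiator caspase of the apoptosome, was at 0.066 ± 0.075 and not called.

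Genes that act on BCL2 family proteins were called in numbers to be read against 31.9% higher and 31.0% lower among all tested genes. Of 11 tested genes that turn over MCL-1 or BH3-only proteins, 2 were higher and 4 lower (median -0.044). FBXW7, a ubiquitin ligase substrate receptor for MCL-1, rose by 0.57 ± 0.065 and MARCHF5, a mitochondrial ubiquitin ligase, by 0.48 ± 0.058. SKP2, a substrate receptor, fell by 0.96 ± 0.051, GSK3B, a kinase that marks MCL-1, by 0.31 ± 0.056, and USP13, a deubiquitinase, by 0.37 ± 0.072. The GSK3B fall was not seen in TPM, at 18.3 ± 2.6 in vehicle and 22.1 ± 2.2 after extract, with overlap. Its mean transcript length went from 4090 to 3276 bases, without overlap. USP13 also overlapped in TPM, at 5.27 ± 0.44 and 4.81 ± 0.37. Among 3 genes that hold BIM and BMF on motor complexes, MYO5A rose by 0.46 ± 0.062 and DYNLL2, the light chain that binds BMF, by 0.30 ± 0.054, while DYNLL1 was at -0.09 ± 0.078 and not called. Of 9 kinases and chaperones that act on BIM, BAD or BAX, 2 were higher and 5 lower (median -0.23). The shares of all genes were the same 31.9% and 31.0%. BAG1, a BCL-2-binding cochaperone, was up by 0.90 ± 0.069 and HSPA8 by 0.53 ± 0.14. RPS6KA1 was down at -0.55 ± 0.054, AKT1 at -0.38 ± 0.051 and MAPK3 at -0.32 ± 0.055, and MAPK3 overlapped in TPM.

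Of 14 tested transcription factors known to act on BH3-only or survival genes, 6 were higher and 3 lower (median 0.12), where 62.9% of all tested genes were called. DDIT3, which encodes CHOP, a factor of the endoplasmic reticulum stress response, rose by 2.50 ± 0.076. ATF3, a stress-induced factor, rose by 2.49 ± 0.091. FOXO1, which acts on BIM and PUMA genes, was at -0.60 ± 0.13, JUN at -0.27 ± 0.062 and TP73 at -0.48 ± 0.12. All were called lower by edgeR (adjusted p = 0.0013, 0.0016 and 0.0028), but their TPM values overlapped or touched between groups. Whether any of the transcription factors acts on the members was not tested.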

How the data were processed

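RNA of 12Z cells was sequenced in 3 vehicle and 3 frankincense libraries (1.5 ug of total RNA each, TruSeq RNA kit, per the labels' protocols). The submitters' processing notes name GRCh38, STAR and RSEM 1.3.1, but annotation release and strand setting are not stated there. The deposited expected counts estimate, per the file headers, how many reads each gene received. The deposited TPM and FPKM values are scaled for length and depth in each library, per the file headers; FPKM was not analysed.

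After rounding, expected counts entered edgeR 4.0.16 (R 4.3.3; filterByExpr defaults, TMM, robust legacy glmQLFit, two-sided glmQLFTest). The filter left 16719 genes, p-values were adjusted over them by Benjamini-Hochberg, and the threshold was 0.05. The script was tested on simulated data. SE is the absolute log2 change divided by the square root of F. Symbols came from the gene name table for 60419 of 60616 identifiers and from GENCODE 29 for 178, and coordinates from GENCODE 29. Alternatives used DESeq2 1.42.0, limma 3.58.1, other scalings and filters, a length offset, a replicate block and leaving out each library. No pair of libraries was close enough to be a repeat deposit of 1 library. The members and lists were chosen with earlier results of these data known. The BH3 core was planned as protein and is given as coding sequence. Named are all members, other BCL2-related genes, and up to 3 called genes per direction and list with the smallest adjusted p. CASP9, DYNLL1 and the genes of overlaps or copies were added after their values were seen. Some genes of these lists are not reported here by name.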

Additional observations from a re-analysis of the deposited data

How the results depend on the processing

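Of 179 single-gene values over 18 alternatives, 8 lost the call, 7 gained one, 2 turned sign and the rest kept direction and side of the threshold. Both turns were MCL1 on the TPM scale, at 0.041 with a pseudocount of 1 and 0.041 with 0.1. The number of members called lower was 3, and 1 with library size scaling, with TPM at either pseudocount, and with TPM rescaled without mitochondrial genes, an alternative added after seeing the data; the cause was not tested. Leaving out each library in turn gave 5 to 7 members higher and 2 to 3 lower, the 7 without frankincense replicate 3 and the 2 without frankincense replicate 2. In all 9377 to 11031 genes were called, against 10509, and 49.9% to 51.6% of those calls were higher. The number of genes tested was not the same in each fit, with 17191 without frankincense replicate 3, so these totals are not shares of tested genes. HRK could not be tested at a filter of 5 CPM in 3 libraries. The labels number replicates 1 to 3 in both groups, but same-numbered libraries deviated together only weakly (correlations of 0.05, 0.101 and 0.035), so the numbers were not taken as pairs, although every library correlated best with its own number; with the replicate block 5 members were called higher, 3 lower and 10591 genes in all. Depth limits HRK, BCL2A1 and BCL2L10, which lie near the limit that a count of 0 allows.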
